A study of Rattus norvegicus with 2 samples.

Results

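The immediate early genes *Egr1*, *Egr2*, *Egr3*, *Egr4*, *Nr4a1*, *Nr4a2*, *Nr4a3*, *Arc*, *Npas4* and *Ier2* were examined in rat retina. These 10 genes were looked up by symbol among 32662 genes and 9 were matched, while the level of *Ier2* was not analysed here. Whole retina of Long-Evans rats aged 2 months gave 2 RNA-seq libraries, 1 for each condition. CTRL was taken after a sham operation, and IR12 after ischemia followed by 12 hours of reperfusion. With 1 library per condition the differences have no replicate check and no test between conditions was possible. In whole tissue, fewer cells of a type and less RNA per cell cannot be told apart.

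Immediate early genes are transcribed within minutes of synaptic activity, calcium entry, growth factor signalling or injury, without new protein synthesis, and most of their mRNAs are short-lived. Serum response factor with its Elk partners at CArG boxes, and CREB at cyclic AMP response elements (CRE), carry much of this response. The *Egr* genes encode zinc finger transcription factors, the *Nr4a* genes orphan nuclear receptors, *Npas4* a neuronal bHLH-PAS factor that answers to calcium, and *Arc* a synaptic protein that controls AMPA receptor uptake.

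*Npas4* was the matched member at least 2-fold higher in IR12, and 0 members were at least 2-fold lower. Levels are FPKM, which are fragments scaled to transcript length and to a library size set by the authors' software. Differences are log2 ratios of (FPKM + 1), IR12 over CTRL, a scale that understates the difference of low genes. Among all 13599 genes that reached FPKM 1 in a library, 6.56% (892) were 2-fold or more above CTRL in the IR12 library, and 6.12% (832) were 2-fold or more below it. When both libraries were rescaled to the same summed FPKM (TPM scale), this split became 2828 higher and 436 lower, and the median gene moved to 0.60. Values on the TPM scale are therefore read against that median.

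Of the 9 members, 4 reached FPKM 1 in a library and 5 stayed under it in both. *Npas4* reached it through IR12 alone and is higher there by that selection, so the count of 1 gives no support beyond the gene's own values. Summed over the 9 genes the level was 15.4 FPKM in CTRL against 16.9 in IR12. *Egr1* held 62.0% of that sum in CTRL and 34.0% in IR12.

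**Figure D1:**
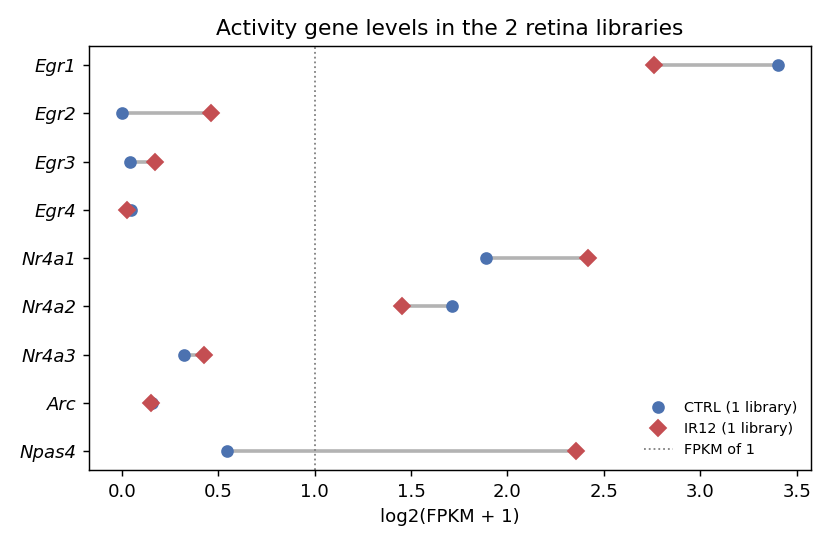
Level of each matched gene as log2(FPKM + 1) in CTRL (circles) and IR12 (diamonds), 1 library each, with a dotted line at FPKM 1. *Npas4* goes from under the line (0.460 FPKM) to above it (4.12), *Egr1* is at 9.58 and 5.76, and *Egr2*, *Egr3*, *Egr4*, *Nr4a3* and *Arc* are under the line in both libraries.

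The promoters of 4 members are shown, *Npas4* as the member with the highest log2 ratio, and *Egr2*, *Egr4* and *Nr4a1* as examples of the letters through which this gene class is known to respond. Sequences are from RefSeq, build GRCr8, run from 250 bases before to 50 bases after the annotated start and follow the gene's strand. Capitals mark matches on either strand to the CArG box, to TGACG, the core of the CRE, or to the Egr site GCGGGGGCG.
*Npas4*, chr1:211716053-211716352, minus strand: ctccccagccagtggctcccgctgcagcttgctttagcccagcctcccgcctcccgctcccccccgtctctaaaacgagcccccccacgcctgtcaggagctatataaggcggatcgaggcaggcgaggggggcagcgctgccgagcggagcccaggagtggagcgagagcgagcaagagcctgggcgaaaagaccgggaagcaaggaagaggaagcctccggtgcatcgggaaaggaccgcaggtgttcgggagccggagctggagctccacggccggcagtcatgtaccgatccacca
*Egr2*, chr20:21054392-21054691, minus strand: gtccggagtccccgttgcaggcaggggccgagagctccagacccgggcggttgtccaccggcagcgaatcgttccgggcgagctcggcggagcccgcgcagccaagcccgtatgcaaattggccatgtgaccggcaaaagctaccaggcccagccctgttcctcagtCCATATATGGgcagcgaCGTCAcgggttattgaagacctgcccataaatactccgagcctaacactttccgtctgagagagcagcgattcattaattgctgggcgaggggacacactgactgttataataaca
*Egr4*, chr4:119607768-119608067, minus strand: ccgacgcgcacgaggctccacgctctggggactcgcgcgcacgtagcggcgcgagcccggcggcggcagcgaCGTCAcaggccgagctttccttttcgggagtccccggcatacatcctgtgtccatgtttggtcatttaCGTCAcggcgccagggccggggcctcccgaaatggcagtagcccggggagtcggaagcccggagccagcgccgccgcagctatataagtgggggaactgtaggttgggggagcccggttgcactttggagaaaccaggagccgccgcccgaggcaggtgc
*Nr4a1*, chr7:134259888-134260187, plus strand: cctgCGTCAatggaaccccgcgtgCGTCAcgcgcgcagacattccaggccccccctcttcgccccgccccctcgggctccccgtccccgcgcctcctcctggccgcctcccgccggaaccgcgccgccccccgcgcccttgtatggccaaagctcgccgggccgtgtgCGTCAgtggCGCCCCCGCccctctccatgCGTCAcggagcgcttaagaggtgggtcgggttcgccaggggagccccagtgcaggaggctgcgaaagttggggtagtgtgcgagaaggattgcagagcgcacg

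Promoters were matched for 7 of the 10 named genes and not for *Egr3*, *Nr4a3* and *Arc*. A CArG box was found in 2 of the 7, *Egr1* and *Egr2*, against 1.64% of 33469 promoters of the same length. The core TGACG was found in 6 of the 7, against 21.2% of all promoters. *Nr4a1* held 4 such matches, *Egr1*, *Egr4* and *Ier2* held 2 each, and *Egr2* and *Nr4a2* held 1 each. The full CRE TGACGTCA, which contains the core, was in the *Ier2* promoter alone of the 7, against 1.83% of all. The Egr site was in the *Nr4a1* promoter alone of the 7, against 2.73% of all. In the *Npas4* window none of these letters were found, and sequence further from the annotated start was not searched for any gene. Of 30 promoters of the other immediate early genes, 3 held a CArG box, 16 the core TGACG, 6 the full CRE and 4 the Egr site. A match describes the sequence and not binding.

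The reads behind low values could be inferred from the lowest FPKM. The lowest FPKM shared by at least 2 genes of the same locus length was taken as the worth of 1 read, for 16 locus lengths in CTRL and 22 in IR12. For a transcript of 2000 bp a read came to 0.0361 FPKM in CTRL and to 0.0211 in IR12, a ratio of 1.71 between the scales of the libraries. This scale can hold a normalisation by the authors' software, so the ratio is not a measurement of sequencing depth. A transcript cannot exceed its locus, which gives each gene a largest possible number of reads. Where both FPKM values stood in a ratio of small whole numbers, those reads are given with a 95% exact binomial interval of the fold. The interval is on the FPKM scale, takes the ratio of 1.71 as given, compares the 2 libraries and covers counting error only. This reading was chosen after the values were seen. No other listed locus lay within 2000 bp of a matched member.

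*Npas4* (rn6, chr1:220261008-220265772) stood at 0.460 FPKM in CTRL against 4.12 in IR12, a log2 ratio of 1.81. Among the 13599 genes its level was at percentile 2.43 in CTRL and 25.9 in IR12, and its log2 ratio at percentile 97.7. It was thus among the lowest of these 13599 genes in CTRL and in their lower part in IR12. The low rank in CTRL follows from the minimum, which *Npas4* passed through IR12 alone. Of all 32662 genes, 15396 were listed at 0 in CTRL. The ratio is that of 16 reads in CTRL to 245 in IR12, or of 32 to 490 if the transcript had 4718 of the 4765 bp of the locus. Without a pseudocount IR12 was 8.97-fold higher, with an interval of 5.41 to 15.9 on the smaller reads. The log2 ratio was 2.08 on the TPM scale, above the median gene there. Npas4 works as a dimer with Arnt proteins, whose genes were named after their values were seen. *Arnt2* was at 3.57 FPKM in CTRL and 2.73 in IR12, and *Arnt* at 32.0 and 35.5. Neither partner gene was 2-fold apart.

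*Egr1* (chr18:27657628-27661429), a widely used marker of neuronal activation and the most abundant member in both libraries, was lower in IR12. It stood at 9.58 FPKM in CTRL against 5.76 in IR12, a log2 ratio of -0.65 at percentile 11.9 of all genes. The level in IR12 was 60.2% of that in CTRL. Its reads stand in the ratio of 36 in CTRL to 37 in IR12 and are at most 504 and 518. The interval of the fold was 0.370 to 0.980 with the smallest and 0.531 to 0.682 with the largest of these reads. The smallest reads would need a transcript of only 446 bp in a locus of 3802 bp. On the TPM scale the log2 ratio was -0.07, beside 0.60 for the median gene, so that *Egr1* was below the median gene on both scales.

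The other *Egr* genes stayed under FPKM 1 in both libraries. *Egr2* (chr20:22454463-22459025), known from hindbrain and Schwann cells, was listed at 0 in CTRL and reached 0.376 FPKM in IR12, at most 43 reads. *Egr3* (chr15:51756736-51760715), which is needed for muscle spindles, was at 0.0277 FPKM in CTRL and 0.127 in IR12. Its locus allowed at most 1 read in CTRL, and no ratio of whole reads was found for it. The reading as whole reads thus failed for *Egr3*, and the reason was not tested. Both *Egr2* and *Egr3* had higher values in IR12, and neither reached FPKM 1. *Egr4* (chr4:117293620-117296082) was at 0.0334 FPKM in CTRL and 0.0195 in IR12, which is 1 read in each library. The fold of *Egr4* was 0.586 with an interval of 0.00746 to 46.0, so a difference was not detectable at this depth. With a pseudocount of 0.1 the log2 ratios of *Egr2* and *Egr3* were 2.25 and 0.83 in place of 0.46 and 0.13. Summed over the 4 *Egr* genes the level was 9.64 FPKM in CTRL and 6.29 in IR12, of which *Egr1* made 99.4% and 91.7%. The log2 ratio of that sum, -0.55, turned to 0.03 on the TPM scale, still under the median gene.

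The *Nr4a* receptors differed in direction, and none was 2-fold apart. *Nr4a1* (Nur77, chr7:142905758-142920216) stood at 2.70 FPKM in CTRL against 4.34 in IR12, a log2 ratio of 0.53 at percentile 83.4 of all genes. *Nr4a2* (Nurr1, chr3:43111240-43119159), needed by midbrain dopaminergic neurons, was at 2.27 FPKM in CTRL and 1.74 in IR12. Its log2 ratio of -0.26 turned to 0.17 on the TPM scale, where the median gene was at 0.60. *Nr4a3* (Nor1, chr5:63781801-63821637) was at 0.248 FPKM in CTRL and 0.344 in IR12. *Nr4a1* and *Nr4a3* were thus higher in IR12, and *Nr4a2* lower except on the TPM scale. The reads of *Nr4a3* stand in the ratio of 8 to 19, a fold of 1.39. Its interval was 0.581 to 3.67 with these reads, which includes equal levels, and 1.14 to 1.70 with the largest reads the locus allows, 144 and 342. The reads of 8 and 19 would need a transcript of 2298 bp. The largest reads would need one close to the whole locus of 39837 bp. For *Nr4a1* and *Nr4a2* no ratio of small whole numbers was found. On the TPM scale *Nr4a1* came just under 2-fold, with the median gene at 0.60. The summed level of the 3 receptors was 5.22 FPKM in CTRL and 6.42 in IR12.

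*Arc* (chr7:115907097-115910541), strongly induced by activity in many brain regions, was close to absent from both libraries. It stood at 0.116 FPKM in CTRL against 0.108 in IR12, which are 5 and 8 reads. The fold was 0.937 with an interval of 0.270 to 3.64, so a difference was not detectable at this depth. Its log2 ratio of -0.01 turned to 0.05 on the TPM scale.

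In CTRL the order of the levels, from high to low, was *Egr1*, *Nr4a1*, *Nr4a2*, *Npas4*, *Nr4a3*, *Arc*, *Egr4*, *Egr3* and *Egr2*. In IR12 it was *Egr1*, *Nr4a1*, *Npas4*, *Nr4a2*, *Egr2*, *Nr4a3*, *Egr3*, *Arc* and *Egr4*. With 1 library each, the spread that would separate neighbours in this order is unknown. The median level of the 9 genes was 0.248 FPKM in CTRL and 0.376 in IR12.

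**Figure D2:**
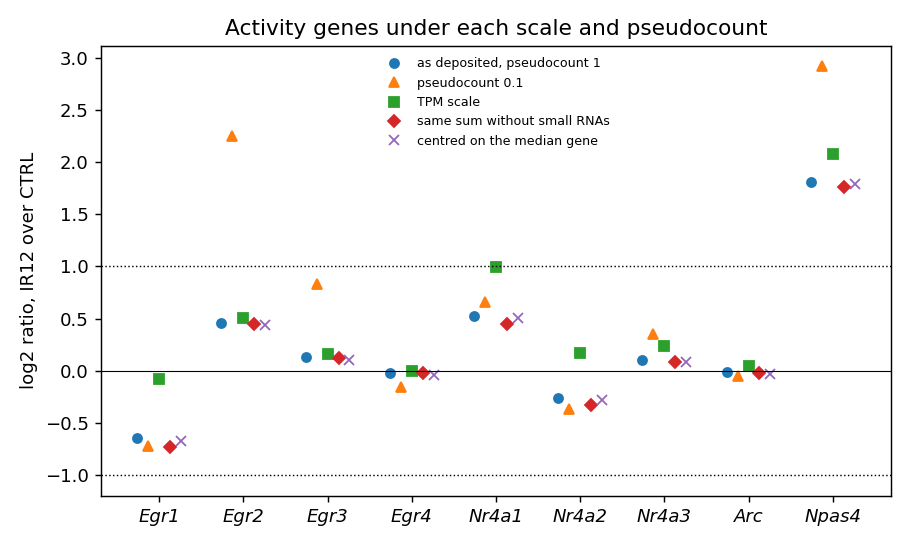
Log2 ratio, IR12 over CTRL, of the 9 matched genes with the values unscaled, under a smaller pseudocount (0.1), on the TPM scale, with the same sum without small RNAs, and centred on the median gene; dotted lines mark 2-fold. *Npas4* stays above the upper line on all 5, between 1.76 and 2.92, *Egr1* comes to -0.07 and *Nr4a2* turns to 0.17 on the TPM scale, and *Egr2* passes the line with the pseudocount of 0.1 (2.25).

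The other immediate early genes were described as a list. Of 40 listed genes 38 were matched and 33 reached FPKM 1 in a library, of which 15 were at least 2-fold higher and 1 at least 2-fold lower, beside the 6.56% and 6.12% of all genes. Of the 15, 6 were under FPKM 1 in CTRL and passed through IR12, where they are high. With FPKM 1 in both libraries 9 of 26 were at least 2-fold higher, beside 535 of 12243 genes. The median log2 ratio was 0.82 for the 33, 0.14 for the 4 members past the minimum and 0.02 for all genes. With FPKM 1 in both libraries these medians were 0.61, -0.26 (3 members, without *Npas4*) and 0.03, so the sign of the members' median rests on *Npas4*. The difference between the lists was not tested.

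The genes with the highest ratios on that list are given first. *Fosl1*, the Fra-1 subunit of AP-1, was listed at 0 in CTRL and reached 33.4 FPKM in IR12. *Atf3*, a stress-induced bZIP factor, was at 2.62 FPKM in CTRL and 94.5 in IR12, and *Junb*, another AP-1 subunit, at 0.780 and 16.7. All 3 were low in the sham retina and past every *Egr* and *Nr4a* gene at 12 hours. The growth regulator *Myc* was at 0.0911 FPKM in CTRL and 7.79 in IR12, and the growth arrest gene *Gadd45g* at 1.97 and 22.6. *Dusp6*, a phosphatase that dampens growth factor signalling, was at 3.94 FPKM in CTRL and 36.8 in IR12. *Maff*, a small Maf protein gene, was at 0.485 and 7.13, and the survival gene *Ier3* at 8.20 and 30.5. These 5 log2 ratios ran from 1.78 for *Ier3* to 3.01 for *Myc*.

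*Fos* and *Jun*, the founding AP-1 genes, were named after their values were seen. *Fos*, which is often induced together with *Egr1*, was at 7.40 FPKM in CTRL and 21.2 in IR12, and *Jun* at 7.24 and 13.5. Their log2 ratios were 1.40 and 0.82, whereas that of *Egr1* was -0.65. Of other AP-1 genes, also named after their values were seen, *Jund* had a log2 ratio of -0.15, and *Fosb* and *Fosl2*, both under FPKM 1, had 0.05 and 0.45. *Dusp4*, a phosphatase of the same family as *Dusp6*, was the gene at least 2-fold lower, with 15.4 FPKM in CTRL and 6.52 in IR12, and was within 2-fold on the TPM scale. The small GTPase gene *Arl4d*, at 90.3 and 66.3 FPKM, and the antiproliferative gene *Btg2*, at 28.3 and 43.1, were abundant and within 2-fold.

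**Figure D3:**
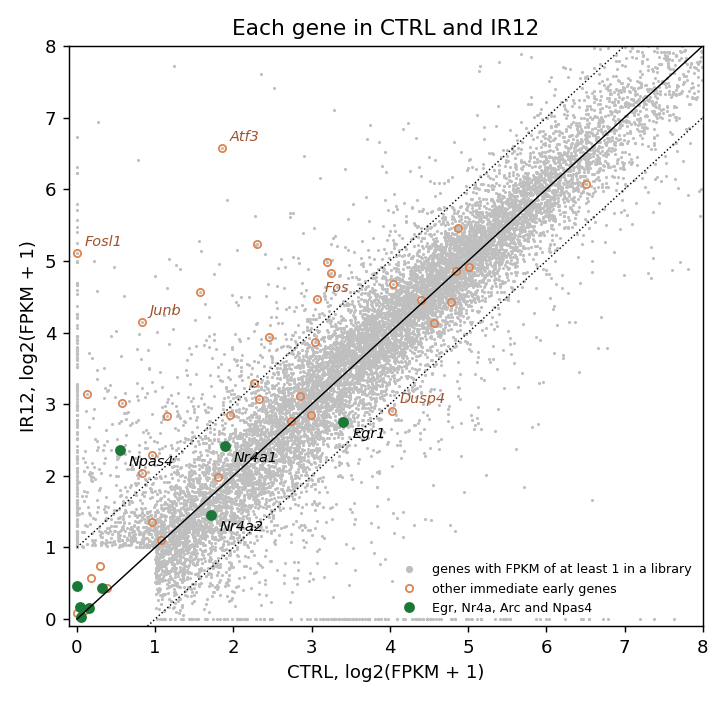
Level of each gene in CTRL (horizontal) and IR12 (vertical) as log2(FPKM + 1), with the matched members filled and the other immediate early genes open; the solid line marks equal levels, the dotted lines 2-fold, and genes past 8 on an axis are not drawn. *Npas4* is the filled point above the upper dotted line, *Atf3*, *Fosl1* and *Junb* lie far above it, and *Dusp4* lies below the lower one.

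Regulators and partners were examined next. Of 33 listed genes 32 were matched, all past the minimum, with 2 (6.25%) at least 2-fold higher, 0 at least 2-fold lower and a median of 0.04, beside 6.56% and 6.12% of all genes. The higher genes were *Rps6ka2*, which encodes an RSK kinase, at 12.0 FPKM in CTRL and 58.6 in IR12, and *Elk3*, a partner of serum response factor, at 1.40 and 4.11. On the TPM scale 10 regulators were at least 2-fold higher, beside 2828 of 13492 genes there. Of the calcium-responsive factor genes, *Mef2c* was at 65.1 and 48.9 FPKM and *Mef2a* at 45.7 and 39.4, and the coactivator gene *Ep300* at 53.5 and 43.3. Named after their values were seen, *Srf* had a log2 ratio of 0.81, *Crem*, which includes a CREB repressor form, 0.94, and *Nab2*, a corepressor of Egr proteins, 0.78.

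Later activity-regulated genes, many of them secreted or synaptic, were examined as a list of 24, of which 23 were matched. Of the 21 past the minimum, 2 (9.52%) were at least 2-fold higher and 3 (14.3%) at least 2-fold lower, beside 6.56% and 6.12% of all genes, counts too small to set the list apart. The median was -0.12, and turned to 0.41 on the TPM scale, under the 0.60 of the median gene there. *Penk*, the enkephalin precursor gene, was at 45.4 FPKM in CTRL and 13.3 in IR12, *Nptx1*, which encodes a synaptic pentraxin, at 10.1 and 4.37, and *Inhba*, the activin A subunit gene, at 1.85 and 0.404. *Scg2*, a secretogranin gene, was higher, at 161 FPKM in CTRL and 334 in IR12, as was the kinase gene *Pim1*, at 0.710 and 3.05. The abundant synaptic genes *Syt4*, at 113 and 114 FPKM, and *Homer1*, at 66.5 and 61.2, were close to equal, and *Mfap3l* was at 51.0 and 27.5.

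**Figure D4:**
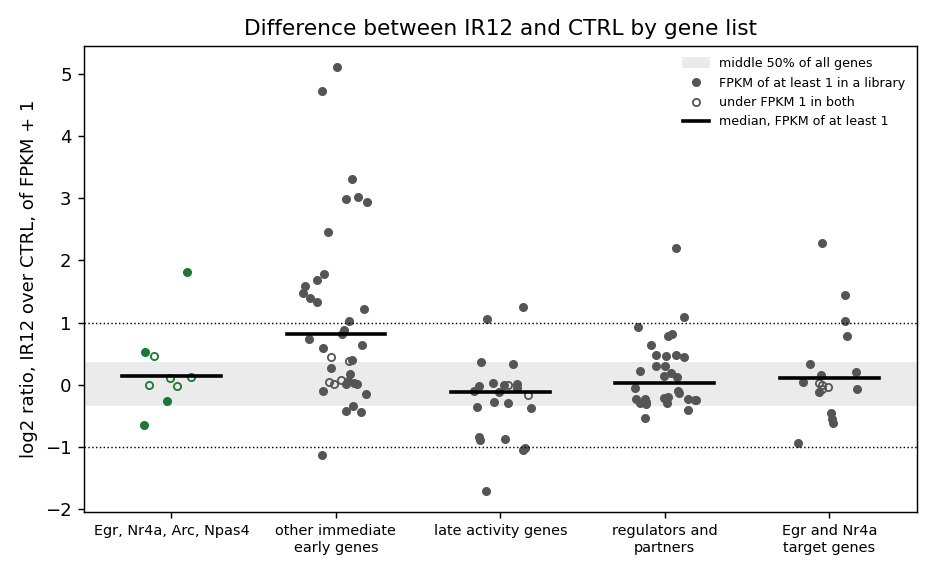
Log2 ratio of (FPKM + 1), IR12 over CTRL, of each gene by list, with filled points for genes that reached FPKM 1 in a library, open points for the others, bars for the median of the filled points and a grey band for the middle 50% of all 13599 genes. The other immediate early genes reach 5.10 with a median of 0.82, and the members other than *Npas4* lie between -0.65 and 0.53.

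The tissue was checked against marker genes, and several cell type lists differed between the libraries beside the members. Of the 7 rod markers matched 0 were 2-fold apart, with a sum of 14912.5 FPKM in CTRL and 18316.9 in IR12. By FPKM 4 of them were higher and 3 lower. On the TPM scale all 7 were higher, 1 of them at least 2-fold. All 9 amacrine markers were lower in IR12, 0 of them by 2-fold with the pseudocount of 1, and 6 were lower on the TPM scale. With a pseudocount of 0.1, 2 were 2-fold lower, and centred or without small RNAs 1 was. By FPKM alone *Tfap2a* (3.46-fold), *Tfap2b* (2.06-fold) and *Chat* (2.01-fold), named after their values were seen, were more than 2-fold lower. The sum of the 9 markers was 523 FPKM in CTRL and 308 in IR12, led by *Calb2* (275 and 148). Of 9 ganglion cell markers 1 was 2-fold lower, with a sum of 359 and 294 led by *Nefl* (132 and 88.8). Of 6 cone markers 1 was 2-fold lower, with a sum of 495 and 324 led by *Gnat2* (179 and 138). Of 6 bipolar markers 0 were 2-fold apart, with a sum of 537 and 412 led by *Trpm1* (189 and 159). By FPKM 5 of the 6 bipolar and 7 of the 9 ganglion cell markers were lower in IR12. On the TPM scale 4 and 7 of them were higher, and their sums were 1.20-fold and 1.28-fold higher. Their median log2 ratios there, 0.22 and 0.47, were under the 0.60 of the median gene. The cone sum was 1.02-fold there. All 6 cone markers were lower by some amount (4 on the TPM scale). The 2-fold lower cone markers were 0 on the TPM scale and 2 with a pseudocount of 0.1, centred, or without small RNAs, and the ganglion cell markers 0 on the TPM scale and 1 otherwise.

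Glial, lens and leukocyte markers differed more. All 6 Müller glia markers were at least 2-fold lower in IR12, 4 of them on the TPM scale, with a sum of 1499.8 FPKM in CTRL and 352 in IR12 led by *Glul* (754 and 126). All 7 lens markers were at least 2-fold lower on both scales, with a sum of 3369 and 400.0 led by *Cryba1* (1614 and 196). Of 10 microglia and leukocyte markers 6 were at least 2-fold higher, 5 of them from under FPKM 1 in CTRL, with a sum of 21.8 and 138 led by *Lyz2* (9.73 and 76.9), and *S100a8* was listed at 0 in CTRL. Named after their values were seen, the microglia markers *Csf1r* (3.61 and 3.71), *Aif1* (5.42 and 7.36) and *Cx3cr1* (1.16 and 0.676) were within 2-fold, and the higher genes were *Lyz2*, *S100a8*, *S100a9*, *Itgam*, *Ptprc* and *Cd14*. *Cd68* was at 0.437 and 1.65 FPKM, a log2 ratio of 0.88. With a pseudocount of 0.1, and on the TPM scale, 7 of the 10 were at least 2-fold higher. Of the 7 endothelial markers matched 1 was 2-fold higher, with a sum of 132 and 111 led by *Kdr* (108 and 66.8). That sum was 1.32-fold higher on the TPM scale, where the endothelial median of 0.48 was under the 0.60 of the median gene. Of 6 pigment epithelium markers 1 was 2-fold lower (0 on the TPM scale, where 1 was 2-fold higher), with a sum of 91.3 and 108 led by *Ttr* (61.8 and 87.4). Of 4 blood markers 1 was 2-fold higher (2 on the TPM scale), with a sum of 28.4 and 52.6 led by *Hbb* (20.4 and 35.1). *Hba-a1* (0.859 and 0.168) and *Alas2* (0.334 and 0.196), also named after their values were seen, were lower and under FPKM 1 in both libraries. The part of these cell types in the levels of the *Egr*, *Nr4a*, *Arc* and *Npas4* genes was not tested.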

How the data were processed

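Gene levels came from RNA-seq of rat retina, 1 library per condition, assigned by title. The authors deposited FPKM per gene. The submitters' processing notes name STAR 2.5.2b, Cuffdiff 2.2.0 and rn6. Locus starts were converted to 1-based positions. How the counting treated strand is not given in the sources used here.

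Log2 ratios used a pseudocount of 1 and counts a minimum FPKM of 1 in a library; no p-value was computed. Small RNAs recognised by symbol took 68.1% of the deposited FPKM in CTRL and 46.4% in IR12, so a common sum in both libraries, set to that of TPM, was an alternative only. It was first coded as IR12 rescaled to the CTRL sum and was recoded after its gene counts were seen, which alters the weight of the pseudocount. The others were a common sum without small RNAs, centring on the median gene, a pseudocount of 0.1, a minimum FPKM of 5 in a library, of 1 in both or none, and 1.5-fold. The FPKM worth of 1 read was 1.71 times as high in CTRL as in IR12, a ratio shared by 504 genes within 3e-05. Whole reads were accepted up to 40 in CTRL within 2e-05, limits set after candidate values were seen: a stricter tolerance would drop *Arc*, and more reads would admit looser ratios for *Nr4a1* and *Nr4a2*.

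The members and lists were chosen with earlier results of these data known. Named were all members, and of each list the genes at least 2-fold apart, up to 8 in each direction, the 5 most abundant, the top marker of each cell type, *Gapdh* and *Actb*; some of these are not reported here. The scripts were tested on simulated data, using scipy 1.17.1, pandas 2.3.3 and numpy 2.4.6 under Python 3.11.15, with figures from matplotlib 3.10.9.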

Additional observations from a re-analysis of the deposited data

How the results depend on the processing

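For the counts and medians of the lists 115 alternative values were computed; 98 stayed within 1.5 times (counts) or 1.5-fold (medians), 17 did not, and 0 values past 2-fold changed side. Those of the late activity genes, regulators and target genes were chosen after seeing the data. With a minimum FPKM of 1 in both libraries the higher members became 0, the higher immediate early genes 9 and the higher late activity genes 1, since genes low in CTRL leave, and the members' median turned to -0.26. With a minimum of 5 in a library the higher members became 0 with a median of -0.65, from *Egr1* alone, and the higher late activity genes and regulators 1 each. On the TPM scale the lower immediate early genes became 0, the lower late activity genes 1 and the higher regulators 10, beside the move of the median gene to 0.60. With the same sum without small RNAs the higher late activity genes and the lower target genes became 1 each, and with a pseudocount of 0.1 the lower target genes 1; the cause was not tested. At 1.5-fold there were 1 lower member, *Egr1*, 6 lower late activity genes, 6 higher regulators and 2 lower target genes, beside 2007 higher and 1861 lower of 13599 genes. For single members 36 of 41 alternative values stayed within 1.5-fold. *Egr2*, *Egr3* and *Npas4* moved with the pseudocount of 0.1 (2.25, 0.83 and 2.92), and *Npas4* and *Egr4* with reads and no pseudocount (3.16 and -0.77), chosen after seeing the data. No paired analysis was possible because there is 1 library per condition, and no replicate could be left out. Few reads in CTRL limit *Egr2*, listed at 0 there, with at most 43 reads in IR12. They also limit *Egr3*, *Egr4*, *Arc* and *Nr4a3*, whose CTRL values can rest on 8 reads or fewer.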

Other observations

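Genes known for Egr or Nr4a sites in their promoters were mixed. All 18 listed genes were matched and 14 reached FPKM 1 in a library, of which 3 were at least 2-fold higher and 0 at least 2-fold lower, with a median of 0.10, beside the 6.56% and 6.12% of all genes. With FPKM 1 in both libraries the median was -0.01 and 2 were higher. *Icam1*, a leukocyte adhesion gene, was at 0.718 FPKM in CTRL and 7.32 in IR12, the phosphatase gene *Ptpn1* at 9.16 and 26.7, and the matrix protease gene *Mmp14* at 9.26 and 19.9. The tissue factor gene *F3* was at 16.2 and 18.2, the synapsin gene *Syn1* at 13.6 and 6.65, and *Cdk5r1*, which encodes the p35 activator of Cdk5, at 12.7 and 7.98.

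The control genes differed from each other. *Gapdh* was at 716 FPKM in CTRL and 690.1 in IR12. Its log2 ratio of -0.05 turned to 0.59 on the TPM scale, close to the median gene there. *Actb* was at 260 and 537, a log2 ratio of 1.04, which was 1.69 on the TPM scale.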
